A study of Mus musculus with 19 samples.

Results

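Taf15 and Prrc2c encode RNA-binding proteins of the cytoplasm and nucleus, and they are described here with 6 further genes of RNA granules, Ewsr1, Atxn2, Atxn2l, G3bp1, G3bp2 and Caprin1, in the cortex of fetal mice whose thyroid hormone supply was changed. Members were all probe sets that the deposited annotation names as one of these 8 genes, Prrc2c also under its older names. These are 8 of 17963 genes named in the annotation, with 30 of the array's 45101 probe sets, 6 each for Atxn2, Caprin1 and Prrc2c, 3 each for Ewsr1 and G3bp2, and 2 each for Atxn2l, G3bp1 and Taf15. The genes were chosen by measured values, the higher signals of Taf15 and Prrc2c in 1 of the treated groups, called hypo_plus, so values and counts of members in that group are given as a description, with no p-value, and nothing is read from them.

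RNA came from a part of the cortex of single fetuses, described as female, of wild type C57BL/6 dams killed on gestational day 16, with 1 array per fetus and 19 arrays in all. From day 13 the 5 control and 4 hyper arrays' dams drank 2% sucrose water, and those of the 5 hypo and 5 hypo_plus arrays drank 1% perchlorate and 0.025% methimazole, which block thyroid hormone synthesis, in the same sucrose water. All dams were injected once under the skin, 12 h before they were killed. Control and hypo dams received saline. The hypo_plus dams received 25.0 µg of thyroxine (T4) with 2.5 µg of T3 per 100 g of body weight, and the hyper dams 100.0 µg of T4 with 10.0 µg of T3. The submitters removed 1 of 20 arrays for poor quality. No label says whether 2 fetuses of a group came from 1 dam, and each p-value rests on the spread between the arrays alone. Titles name the blocking agent as propylthiouracil, and the protocol names a rat array although the probe sets and gene names are those of mouse.

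Taf15 and Ewsr1 belong to the FET family, nuclear proteins that bind RNA and take part in transcription and splicing. G3bp1 and G3bp2 are the scaffold on which stress granules assemble when translation stops, and Caprin1 is their partner, while ataxin-2 (Atxn2), its relative Atxn2l and the large disordered protein Prrc2c are further components of these granules. Thyroid hormone acts through nuclear receptors that bind DNA at copies of the half-site AGGTCA.

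The stretch before the start of transcription is shown for the 3 genes with a probe set that was high on the hormone-injected arrays and for Caprin1, which had a probe set that was low there. The sequences are the 250 bases before each gene's start, 5′ to 3′ on the gene's strand, from RefSeq on GRCm38.p6. They lie at chr11:83472858-83473107 for Taf15 (plus strand), chr1:162740557-162740806 for Prrc2c (minus strand), chr5:121711359-121711608 for the first start of Atxn2 (plus strand) and chr2:103797079-103797328 for Caprin1 (minus strand). Capitals mark the half-site AGGTCA, read as TGACCT on the other strand.
Taf15: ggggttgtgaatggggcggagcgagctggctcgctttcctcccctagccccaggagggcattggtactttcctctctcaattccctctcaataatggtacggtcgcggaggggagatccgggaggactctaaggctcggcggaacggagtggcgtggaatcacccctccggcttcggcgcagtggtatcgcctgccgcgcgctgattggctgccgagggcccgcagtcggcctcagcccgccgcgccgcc
Prrc2c: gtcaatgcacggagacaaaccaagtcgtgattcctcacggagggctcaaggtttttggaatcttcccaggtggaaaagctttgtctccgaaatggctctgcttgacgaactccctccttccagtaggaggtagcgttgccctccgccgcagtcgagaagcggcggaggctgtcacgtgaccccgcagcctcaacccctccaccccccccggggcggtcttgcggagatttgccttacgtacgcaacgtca
Atxn2: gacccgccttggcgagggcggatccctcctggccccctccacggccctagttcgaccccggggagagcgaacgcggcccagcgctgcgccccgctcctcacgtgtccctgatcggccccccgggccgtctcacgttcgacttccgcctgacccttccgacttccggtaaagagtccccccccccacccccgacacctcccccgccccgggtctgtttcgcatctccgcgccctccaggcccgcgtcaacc
Caprin1: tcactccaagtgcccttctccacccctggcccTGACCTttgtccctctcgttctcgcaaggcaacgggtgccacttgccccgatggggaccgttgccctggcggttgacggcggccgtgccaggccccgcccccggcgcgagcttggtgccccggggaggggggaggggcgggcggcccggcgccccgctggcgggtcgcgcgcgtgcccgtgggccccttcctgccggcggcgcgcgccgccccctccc
The half-site in the letters AGGTCA or TGACCT occurred in 3 of 12 promoter windows of the 8 genes, all of which were matched, 1 of Caprin1 and 2 of G3bp2. Those 3 windows are 25.0% of the members' windows, beside 16.3% of all 32851 windows of 300 bases. No member window held the direct repeat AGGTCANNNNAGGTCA on either strand, which 5 of all windows held. The members' windows had a median GC content of 67.0%, beside 52.7% for all, so base composition differed as well. A match is a description of these letters in these windows.

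Signals are the authors' normalized intensities on a linear scale, compared within a probe set and never between probe sets, because probes differ in binding. Changes are differences of group means of log2(signal + 32), which understates those of dim probe sets, with the standard error of the limma fit over all 19 arrays. In whole tissue, fewer cells of a type and less RNA per cell cannot be told apart. The median signal of an array lay between 73.1 and 106.0 in controls and within 73.7 to 104.7 in the treated groups. The log2 ratio of the 3 prime to the 5 prime probe set of Gapdh was -0.22 to -0.05 in controls and -0.21 to 0.09 in hypo_plus. Y-linked Ddx3y read 695.9 on hypo_plus array 1 and 546.7 on hyper array 4 and at most 11.3 on the other 17, which goes against the description of all fetuses as female, so calls that are lost without these 2 arrays are named. Cortex markers were measured on every array, with the summed signal of 11 dorsal cortex genes at 19783.6 to 24988.5 in controls, 16443.7 to 29020.2 in hypo, 17485.3 to 23555.2 in hypo_plus and 21518.0 to 27379.3 in hyper. Of the 30 member probe sets, 27 had a present call in the authors' deposited table and 3 an absent call.

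The brighter Taf15 probe set, 1438130_at, was high in both groups injected with hormone. It read 233.6, 223.1, 129.1, 282.7 and 181.9 on the 5 control arrays. It read 193.7, 202.4, 220.5, 210.7 and 129.9 on the 5 hypo arrays. All control and hypo arrays therefore lay at or below 282.7. On the hypo_plus arrays it read 379.0, 454.5, 460.0, 511.3 and 402.1. The 4 hyper arrays read 516.2, 350.8, 419.4 and 320.0. Each of the 9 hormone-injected arrays lay above each of the 10 others. Of all 45037 probe sets tested, 1.68% had every hyper array above every control. Every hypo_plus array lay above every control in 1.53% of them and above every hypo array in 3.33%. The log2 difference of 1438130_at from control was 1.00 ± 0.16 (SE) in hypo_plus and 0.86 ± 0.17 in hyper, and the difference of hypo_plus from hypo was 1.09 ± 0.16. In hyper against control, the comparison that the choice of genes did not use although it shares its controls, the adjusted p of limma was 0.0563, which misses the threshold of 0.05. It ran from 0.0156 to 0.424 over 29 alternatives, was past the threshold in 6 of them, including those without control array 4 (0.0156) or hypo array 5 (0.0431), and was 0.0734 without both arrays with Y-linked signal (0.95). Hypo differed from control by -0.10 ± 0.16 (limma adjusted p = 0.952).

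The second Taf15 probe set, 1453504_at, was dim and followed another order. It read 72.3, 58.9, 36.0, 85.7 and 57.0 in control. It read 31.1, 29.7, 30.1, 36.7 and 40.2 in hypo. Both groups overlap through control array 3. It read 77.7, 29.1, 32.9, 45.8 and 42.6 in hypo_plus. It read 40.8, 62.6, 35.6 and 41.6 in hyper. The hypo_plus array that stands highest is array 1, which also carries the Y-linked signal. The difference from control was -0.27 ± 0.16 in hyper (limma adjusted p = 0.598) and -0.50 ± 0.15 in hypo (0.356), and neither passed. In hypo_plus it was -0.28 ± 0.15 from control and 0.21 ± 0.15 from hypo.

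The bright Prrc2c probe set 1429433_at, like the brighter one of Taf15, was high on all hormone-injected arrays. It read 1165.3, 1168.1, 1072.7, 1589.3 and 1350.5 in control. It read 777.0, 1091.0, 954.5, 1305.8 and 1084.5 in hypo. These groups overlap, with 2 of 5 hypo arrays below every control. It read 2166.8, 2424.3, 1979.7, 2268.9 and 2165.3 in hypo_plus. It read 2221.3, 2014.2, 1900.0 and 1951.4 in hyper. The lowest hormone-injected array, at 1900.0, stood above the highest of the others, at 1589.3. Every hyper array lay above every control in 1.68% of all probe sets. Prrc2c 1429433_at rose in hyper against control by 0.67 ± 0.12 on the log2 scale, higher on 4 of 4 arrays than on any control (limma adjusted p = 0.037). The call was lost in 16 of 29 alternatives, among them the fit without both arrays with Y-linked signal (0.69, adjusted p = 0.0816), the fit without hyper array 1 (0.62, adjusted p = 0.138), and each fit that left out another hyper array or one of control arrays 1, 2, 3 and 5, hypo array 2 or hypo_plus array 4. Over the 29 alternatives the adjusted p ran from 0.0085 to 0.604. Hypo against control gave a change of -0.28 ± 0.12 (limma adjusted p = 0.527), which did not pass. In hypo_plus the difference was 0.79 ± 0.12 from control and 1.07 ± 0.12 from hypo.

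On the other Prrc2c probe sets the hormone-injected arrays did not stand clear of the rest. Probe set 1438663_at, also bright, read 832.4 to 1176.7 in control, 635.1 to 1023.2 in hypo, 893.9 to 1306.0 in hypo_plus and 888.8 to 1015.9 in hyper. All 4 ranges overlap. Its change was -0.04 ± 0.13 in hyper against control (limma adjusted p = 0.952) and -0.31 ± 0.12 in hypo against control (0.495), and in hypo_plus it was 0.37 ± 0.12 from hypo and 0.06 ± 0.12 from control. Dim probe set 1454338_at read 30.8, 43.3, 44.7, 81.7 and 55.9 in control. It read 34.9, 34.0, 51.2, 60.7 and 27.2 in hypo. Its group means ran in the same order as those of 1429433_at, with 83.7 in hypo_plus, 61.3 in hyper, 51.3 in control and 41.6 in hypo. The 5 hypo_plus arrays read 86.3, 93.2, 77.4, 82.6 and 78.7, all above hypo, as in 3.33% of all probe sets. The 4 hyper arrays read 76.6, 41.1, 61.3 and 66.0, all within the control range. Its change was 0.67 ± 0.15 in hypo_plus against hypo and 0.18 ± 0.15 in hyper against control (limma adjusted p = 0.754). Prrc2c 1440947_at, 1429432_at and 1432760_at were dim, with means over 19 arrays of 52.9, 17.2 and 18.2, the last 2 with absent calls, and changed by -0.25 to 0.20 in the 4 comparisons.

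Ataxin-2 binds RNA and poly(A)-binding protein. Of its 6 probe sets, 1443516_at rose most in hypo_plus and in hyper. Atxn2 1443516_at read 149.7, 182.6, 168.8, 311.5 and 151.0 in control. It read 190.8, 192.3, 202.6, 205.8 and 154.4 in hypo. Control array 4 stands apart, above each of the other 9. The hypo_plus arrays read 304.5, 293.9, 306.1, 343.2 and 369.3, and the hyper arrays 361.5, 248.0, 346.5 and 232.4. Because of control array 4, 2 of 5 hypo_plus and 2 of 4 hyper arrays lay above every control, while every hypo_plus array lay above every hypo array, as in 3.33% of all probe sets. The change was 0.57 ± 0.16 in hyper against control (limma adjusted p = 0.17) and without control array 4 it was 0.74 with an adjusted p of 0.0102, in a range of 0.0102 to 0.488 over 28 alternatives. It was 0.70 ± 0.15 in hypo_plus against control, 0.68 ± 0.15 against hypo, and 0.02 ± 0.15 in hypo against control (0.996). Atxn2 1459363_at changed by 0.31 ± 0.12 in hypo_plus against control, by 0.22 ± 0.12 against hypo, and by 0.24 ± 0.13 in hyper against control (limma adjusted p = 0.53). On it 3 of 5 hypo_plus and 2 of 4 hyper arrays lay above every control. The brightest Atxn2 probe set, 1419866_s_at, read 680.7 to 826.0 in control and 798.9 to 950.1 in hyper, a change of 0.20 ± 0.12 (limma adjusted p = 0.59). In hyper against control 1438143_s_at, 1438144_x_at and 1460653_at changed by 0.24, 0.02 and -0.08. In the deposited annotation 5 Atxn2 probe sets also carry a second symbol, LOC100047323, and may take signal from it.

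**Figure D1:**
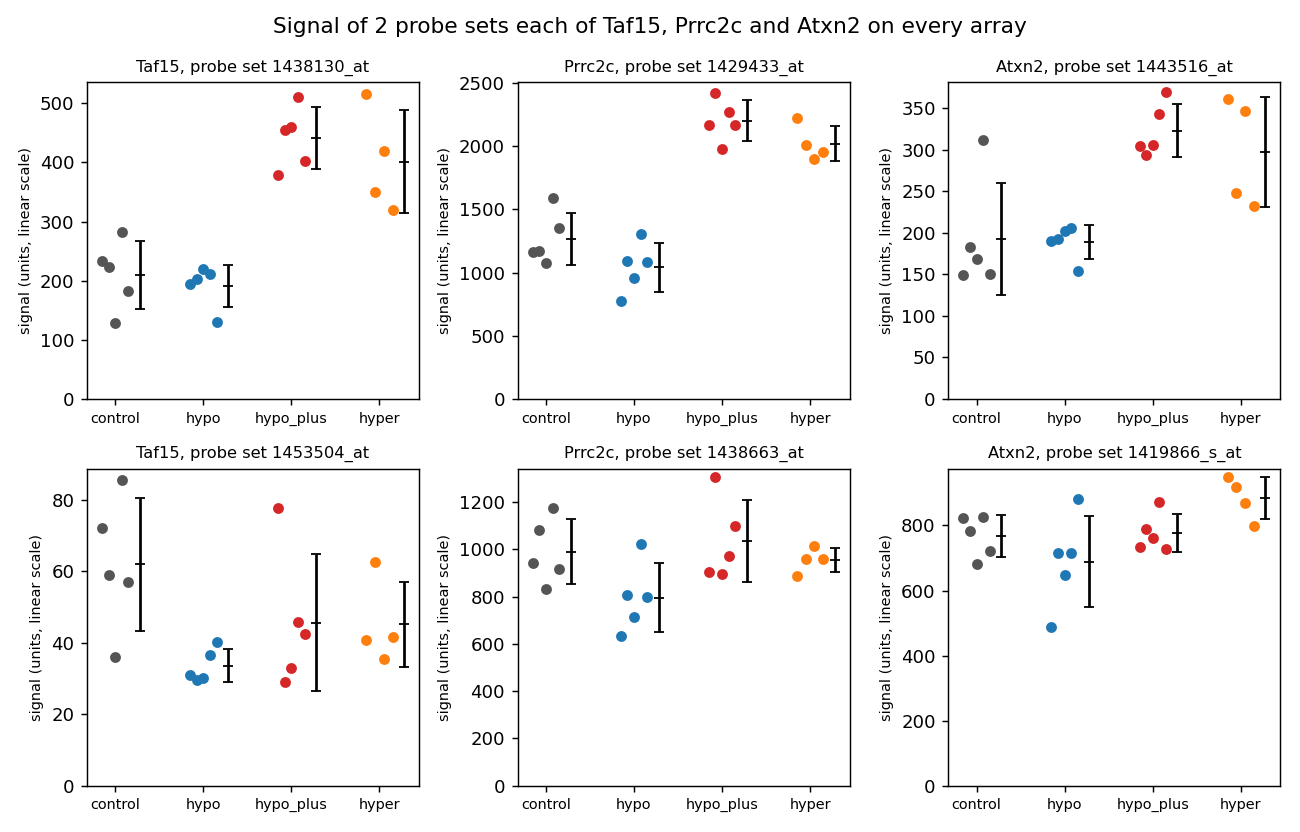
Signal, in linear units, on each of the 19 arrays by group for a probe set of Taf15, Prrc2c and Atxn2 that was high in hypo_plus (top row) and for another probe set of the same gene (bottom row). Points are arrays and bars the mean ± SD of a group. In the top row the hypo_plus means of 441.4, 2201.0 and 323.4 stand above control means of 210.0, 1269.2 and 192.7.

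Probe sets of 1 gene were set against each other on the same array, as a description, since the pairs were chosen with their values known. For Taf15, log2(signal + 32) of 1438130_at less that of 1453504_at averaged 1.35 in control and 2.48 in hyper, a difference of 1.13 ± 0.21, and 4 of 4 hyper arrays lay above all controls. The hypo arrays, without hormone, read 1.84, 1.93, 2.02, 1.82 and 1.16, and all but the last also lay above the highest control, at 1.49. For Prrc2c, 1429433_at less 1438663_at averaged 0.35 in control and 1.06 in hyper, a difference of 0.71 ± 0.11, again with 4 of 4 above. For Atxn2, 1443516_at less 1419866_s_at averaged -1.87 in control and -1.50 in hyper, a difference of 0.37 ± 0.20 with 2 of 4 above. In each pair the first was the gene's probe set of largest change in hypo_plus against hypo, and the second the brightest other. That choice favours unequal changes within a pair and high correlations between the first probe sets, so nothing is read from either. Across 19 arrays the Pearson correlation was 0.04 between both Taf15 probe sets, 0.65 between these 2 of Prrc2c and 0.35 between these 2 of Atxn2. Between genes it was 0.88 for Taf15 1438130_at with Prrc2c 1429433_at, 0.90 for Taf15 1438130_at with Atxn2 1443516_at and 0.82 for Prrc2c 1429433_at with Atxn2 1443516_at. All points share the groups and the normalization. Where the probes of a set lie in their transcripts was not analysed here.

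**Figure D2:**
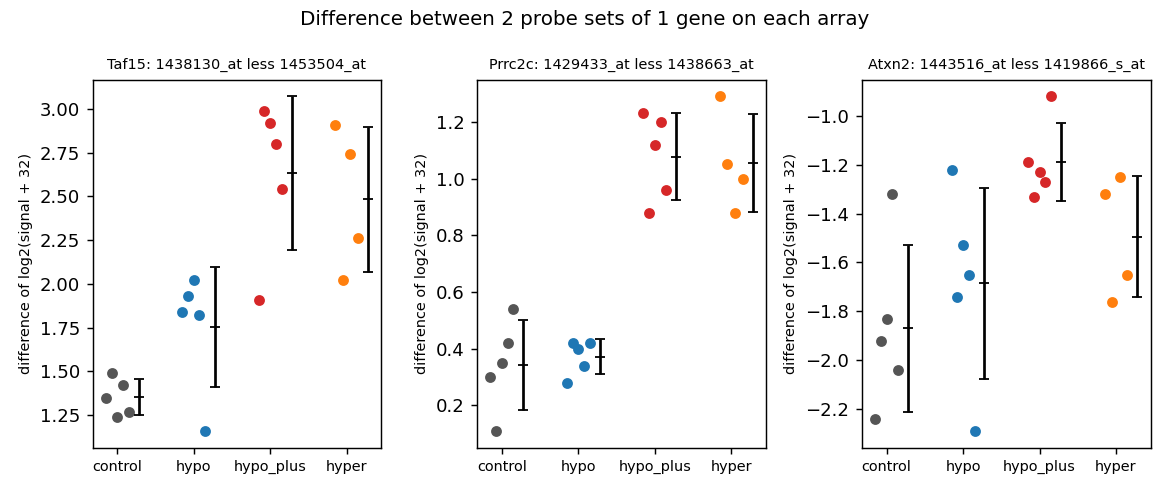
Difference of log2(signal + 32) between 2 probe sets of the same gene on each array, by group, for Taf15, Prrc2c and Atxn2. Points are arrays and bars the mean ± SD. The 4 hyper arrays lie above all 5 controls for Taf15 and Prrc2c, and 2 of 4 do so for Atxn2. For Taf15 every hypo array but array 5 does so as well.

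Caprin1, which binds G3bp1 and mRNA, had 1 of 6 probe sets that was below every control on all hormone-injected arrays. Caprin1 1448348_at read 2452.9, 1941.6, 2476.0, 2107.8 and 2529.2 in control. It read 1474.4, 1913.3, 2327.6, 1701.4 and 2515.1 in hypo, across and below the control range. The hypo_plus arrays read 1676.8, 1434.6, 1301.0, 1541.8 and 1341.9, and the hyper arrays 1703.4, 1883.2, 1534.6 and 1715.5. All 9 hormone-injected arrays lay below the lowest control, at 1941.6, while 3 of 5 hypo_plus arrays lay below every hypo array. Of all probe sets, 1.59% had every hyper array below every control and 2.54% every hypo_plus array. In hyper against control the change of 1448348_at was -0.42 ± 0.13 (limma adjusted p = 0.225), which did not pass. It was -0.64 ± 0.12 in hypo_plus against control, -0.42 ± 0.12 against hypo, and -0.23 ± 0.12 in hypo against control (0.686). The brightest Caprin1 probe set, 1416462_at, averaged 6547.2 ± 166.2 (SD, n = 5) in control, 5655.0 ± 1186.5 in hypo, 5396.7 ± 382.2 in hypo_plus and 5974.8 ± 572.6 (n = 4) in hyper. It lay below every control on 5 of 5 hypo_plus arrays (a change of -0.28 ± 0.11) and on 3 of 4 hyper arrays (-0.14 ± 0.12, limma adjusted p = 0.764). The other 4 Caprin1 probe sets changed by -0.11 to 0.15 in hyper against control and none of the 6 passed there or in hypo against control.

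G3bp2, a stress granule scaffold, had 1 of 3 probe sets that was low on every hypo_plus array. G3bp2 1415697_at read 2056.9, 2416.7, 2594.5, 2117.4 and 2340.9 in control. It read 2073.5, 2266.5, 2162.7, 2380.6 and 2036.5 in hypo. These groups overlap, with 1 hypo array below every control. The hypo_plus arrays read 1830.4, 1885.8, 1809.8, 1843.6 and 1790.0, below each control and hypo array, and the hyper arrays 2002.1, 1856.7, 2169.7 and 2000.2, of which 3 of 4 lay below every control. Of all probe sets, 2.54% had every hypo_plus array below every control and 1.77% below every hypo array. The change of 1415697_at was -0.32 ± 0.06 in hypo_plus against control, -0.25 ± 0.06 against hypo, and -0.19 ± 0.07 in hyper against control (limma adjusted p = 0.294). G3bp2 1421323_a_at was higher in hypo_plus than in hypo, by 0.26 ± 0.08, with means of 3652.0 ± 279.3 in hypo_plus and 3060.7 ± 413.8 in hypo (SD, n = 5 each). Its control mean was 3668.2 ± 292.6. The change from control was -0.01 ± 0.08 in hypo_plus and -0.27 ± 0.08 in hypo (limma adjusted p = 0.377 in hypo).

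The 7 probe sets of Ewsr1, G3bp1 and Atxn2l changed by -0.23 to 0.19 in the 4 comparisons. Ewsr1 1436884_x_at, the brightest of its 3 probe sets, averaged 3977.7 ± 234.2 in control, 3898.9 ± 332.0 in hypo, 3766.2 ± 148.4 in hypo_plus (SD, n = 5 each) and 4074.6 ± 242.6 (n = 4) in hyper. Its change was 0.03 ± 0.06 in hyper against control (limma adjusted p = 0.91), but -0.07 when arrays were centred on their medians. Ewsr1 is the nearest relative of Taf15 measured here among the members, and its group means lie within the spread of its arrays. G3bp1 1422801_at averaged 2355.7 ± 164.0 in control and 2697.3 ± 185.6 in hyper, a change of 0.19 ± 0.06 with 3 of 4 hyper arrays above every control (limma adjusted p = 0.266). Atxn2l 1438668_x_at averaged 481.4 ± 46.0 in control and 455.9 ± 32.7 in hyper, a change of -0.07 ± 0.08 (limma adjusted p = 0.829).

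Counted over the members, 1 of 30 probe sets passed in hyper against control, Prrc2c 1429433_at, where 0.175% of all 45037 probe sets tested passed. At an unadjusted p under 0.05 it was 6 of 30, or 20.0%, beside 10.5% of all. A present call was held by 27 of the 30 but by only 28420 of all 45037, so members and background are unlike sets. The members' median change there was 0.01 beside 0.013 for all, with 15 positive and 15 negative. In hypo against control none passed in limma, nor did any of all probe sets (0.0%), and 7 of 30 had an unadjusted p under 0.05, 23.3% beside 8.19% of all. Of the 30 changes there 25 were negative, from -0.50 to 0.09, with a median of -0.109 beside -0.012 for all. Hypo against control shares its hypo and control arrays with the comparisons that the choice used. Several of the probe sets also measure the same gene on the same arrays, so nothing is read from these counts. In the authors' deposited table, 2 of the 30 had an adjusted permutation p under 0.05 in hyper against control and none in hypo against control, beside 248 and 50 of all 45037 probe sets. The 2 were Taf15 1438130_at and Prrc2c 1429433_at, with deposited fold changes of 1.94 and 1.61. In both hypo_plus comparisons, which the choice used, 5 of 30 were past the threshold, a count that the choice itself raises and that is given as a description only, where 3.16% of all were against hypo and 3.11% against control. Against hypo 4 were up and 1 down, beside 2.03% and 1.13% of all, and against control 3 were up and 2 down, beside 1.21% and 1.9%.

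**Figure D3:**
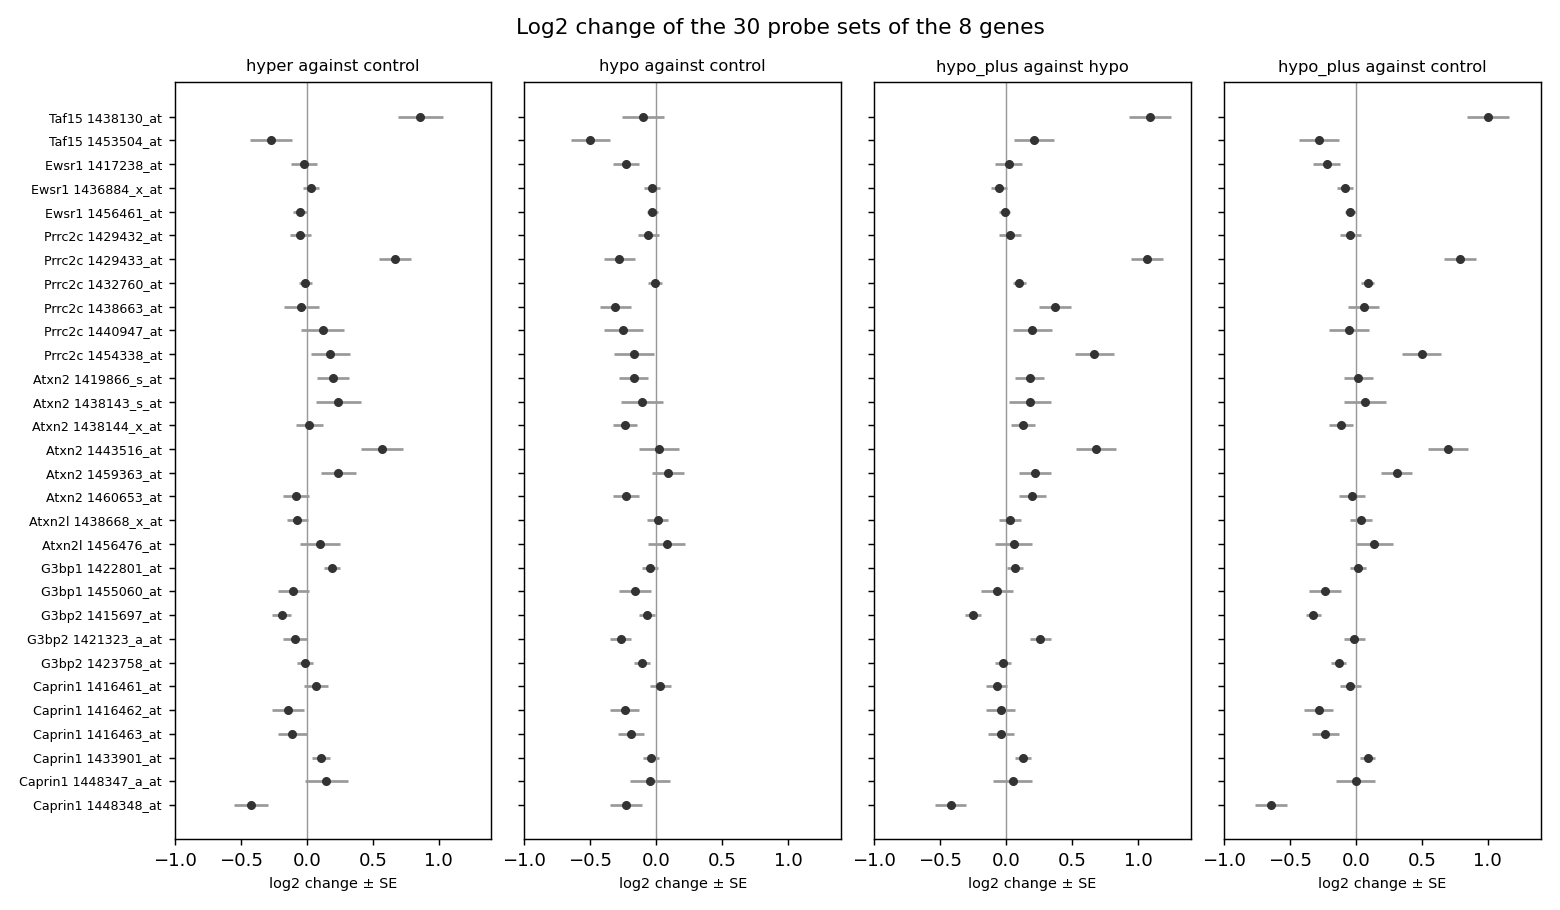
Log2 change ± SE of each of the 30 probe sets in 4 comparisons, by gene. Points right of the line are higher in the first group named. Most lie near 0, and the largest are Taf15 1438130_at at 1.09 and Prrc2c 1429433_at at 1.07 in hypo_plus against hypo.

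Genes whose signal ran most like these across the arrays were taken from 19303 probe sets with 1 symbol and a mean of at least 100 units, as a description. Srrm2, a large splicing protein of nuclear speckles, came first for Taf15 1438130_at, with r = 0.958 over 19 arrays and group means of 219.1 in control, 196.3 in hypo, 441.3 in hypo_plus and 442.7 in hyper. Sorbs2 (0.948), Gtf3c2 (0.939), 2900011L18Rik (0.935) and Tsnax (0.93) followed. For Prrc2c 1429433_at the first was Kmt2e, listed as Mll5, a chromatin protein, with r = 0.962 and means of 1783.3, 1613.0, 2138.0 and 2152.8 in the same order. Pitpnc1 (0.949), Pitpnb (0.946), the histone demethylase Kdm6b (0.935, listed as Jmjd3) and Mbd5 (0.934) followed. In each of these 10 the hypo_plus and hyper means both lay above the control mean. The choice of the highest r among many probe sets makes high values certain. Because both member probe sets were high on the hormone-injected arrays, that choice also favours this order of group means, so nothing is read from it. The points share groups, arrays and normalization.

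Beyond the members, a list of 83 RNA granule and related RNA-binding genes, written with earlier results known but not by how its genes moved, had 248 probe sets. Of these 14 passed in hypo_plus against hypo, 7 up and 7 down, which is 5.65% beside 3.16% of all. Against control 11 passed in hypo_plus, 4 up and 7 down, or 4.44% beside 3.11%. None passed in limma in hyper against control, where 36 had an unadjusted p under 0.05 (14.5% beside 10.5% of all), or in hypo against control, with 21 (8.47% beside 8.19%). Median changes were 0.03, -0.015, 0.029 and -0.047 in that order, beside 0.001, -0.008, 0.013 and -0.012 for all. Both hypo_plus comparisons share the hypo_plus arrays. With arrays centred on their medians the split became 3 up and 9 down against hypo, and 2 up and 15 down against control. Without both arrays with Y-linked signal 10 passed against hypo and 13 against control. Leaving out hypo_plus array 5 left 5 against hypo, leaving out hypo array 5 or hypo_plus array 4 left 6, hypo_plus array 2 left 8, and hypo array 2 or hypo_plus array 3 left 9. Leaving out control array 5 left 5 against control.

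Among those that rose, Sfpq and Nono are partners in paraspeckles, nuclear bodies built on RNA. Sfpq 1436898_at averaged 2351.8 in control, 2232.7 in hypo and 4219.3 in hypo_plus, a rise of 0.92 ± 0.13 against hypo (limma adjusted p = 0.00176) and 0.86 ± 0.13 against control (0.00253). It lay above every array of both groups on 5 of 5, as in 3.33% of all probe sets against hypo and 1.53% against control. Nono 1431239_at rose by 0.59 ± 0.15 (limma adjusted p = 0.0364) and 0.61 ± 0.15 (0.0339), and missed the threshold without both arrays with Y-linked signal (0.0623 and 0.0506). Elavl4 1450258_a_at (0.43), Hnrnpa1 1423531_a_at (0.37), Tnrc6a 1434898_at (0.36) and Elavl3 1455484_at (0.29) also rose against hypo, and Tnrc6a 1455128_x_at (0.35) against control. These are single probe sets out of 6 for Sfpq, 4 for Nono, 3 for Elavl4, 5 for Hnrnpa1, 9 for Tnrc6a and 2 for Elavl3. The probe sets of these genes that are not named here did not pass. The limma adjusted p was 0.0321 for Elavl4, and it was 0.0707 without both arrays with Y-linked signal. Of 28 alternatives, 9 ended the call against hypo for Nono and for Elavl4, 10 for Tnrc6a, 8 for Elavl3, 1 for Hnrnpa1 and none for Sfpq. The paralogues of Prrc2c did not pass in any comparison, neither the 3 probe sets of Prrc2a nor the 2 of Prrc2b, whose 1433625_at changed by -0.35 ± 0.11 in hyper against control (limma adjusted p = 0.209).

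Of the probe sets that fell, Fmr1 1426086_a_at, of the fragile X protein that represses translation at synapses, fell from 401.9 in hypo and 422.5 in control to 245.6 in hypo_plus, with log2 changes of -0.64 ± 0.13 and -0.70 ± 0.13 (limma adjusted p = 0.016 and 0.0104). Cpeb4 1420617_at, of a protein that binds cytoplasmic polyadenylation elements, fell with changes of -0.36 ± 0.07 and -0.47 ± 0.07 (limma adjusted p = 0.0119 and 0.00253), and its dim probe set 1449931_at with changes of -0.54 ± 0.13 and -0.65 ± 0.13. Elavl1 1445521_at, of a protein that stabilises mRNAs, fell with changes of -0.38 ± 0.10 and -0.44 ± 0.10 (limma adjusted p = 0.0432 and 0.0225). Larp4 1455102_at (-0.51), Fmr1 1452550_a_at (-0.39) and Ythdf3 1426841_at (-0.23) fell against hypo, and Eif3a 1416660_at (-0.50), Tardbp 1428467_at (-0.32) and Fmr1 1423369_at (-0.23) against control. The limma adjusted p against hypo was 0.0472, 0.042 and 0.046 in that order, and these calls were lost in 15, 13 and 22 of 28 alternatives. Elavl1 lost its call against hypo in 15 of 28. Without both arrays with Y-linked signal the adjusted p against hypo was 0.0503 for Elavl1 and 0.0878 for Ythdf3. Against control the calls of Tardbp and Fmr1 1423369_at were lost in 10 of 28 each and that of Eif3a in none, and in both comparisons those of Fmr1 1426086_a_at and Cpeb4 1420617_at were lost in none. The array had 3 probe sets each for Fmr1, Cpeb4, Larp4 and Ythdf3, 4 for Eif3a, 5 for Tardbp and 6 for Elavl1. Those not named here did not pass.

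**Figure D4:**
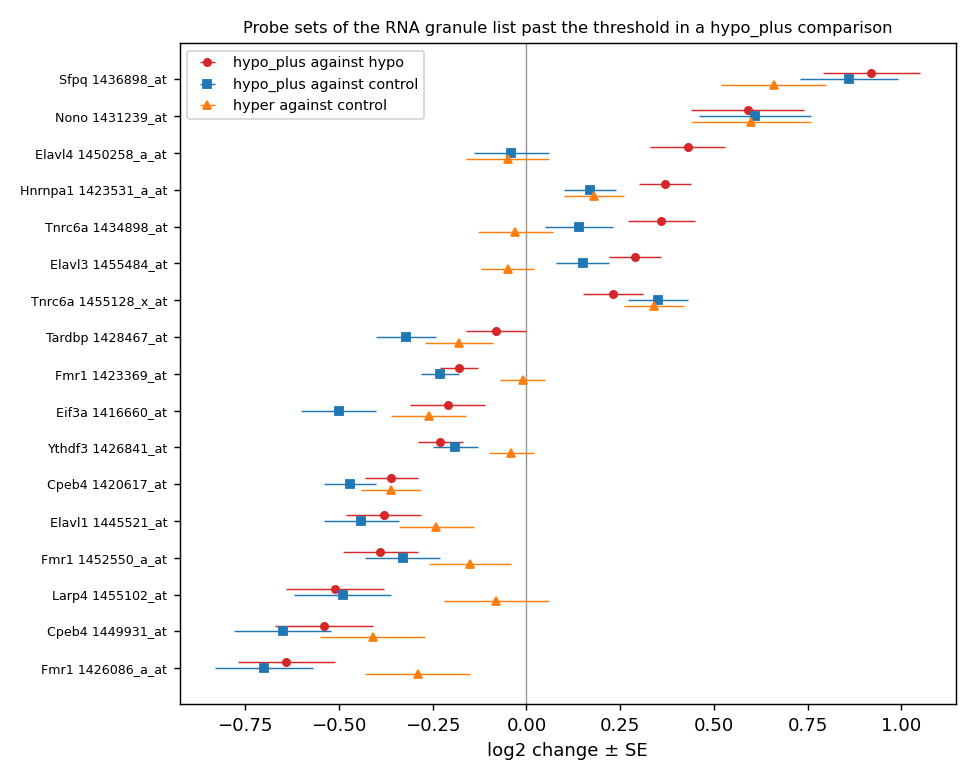
Log2 change ± SE of 17 probe sets of the RNA granule list that passed in a hypo_plus comparison, with their change in hyper against control beside it. Sfpq 1436898_at is highest at 0.92 and Fmr1 1426086_a_at lowest at -0.70.

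Other signals moved with the members in hypo_plus, and their part in these results was not tested. Of 8 RNAs known to stay in the nucleus, 7 were measured, and 2 passed upward in hypo_plus against hypo, Malat1 by 1.17 (limma adjusted p = 0.00226) and Rian by 0.79 (0.0137), and Malat1 also against control by 0.84 (0.014). Their summed signal was 4618.2 to 7436.6 in control, 4517.7 to 8960.0 in hypo, 8278.2 to 10370.1 in hypo_plus and 5717.7 to 6950.3 in hyper. The hyper arrays lay within the control range of that sum. In hyper against control Malat1 changed by 0.28 (limma adjusted p = 0.638), and Meg3, the largest signal in the sum, by -0.17 (0.866). Of 9 ventral forebrain markers 2 passed upward in hypo_plus against hypo, Dlx2 by 0.76 and Ebf1 by 0.40, and Dlx2 also against control by 0.56 (limma adjusted p = 0.0454), with summed signals of 8886.3 to 12542.7 in hypo_plus, 5643.6 to 9666.7 in hypo, 7395.4 to 10992.0 in control and 7733.4 to 9486.8 in hyper. Of the 11 dorsal cortex markers Fezf2 fell against hypo with a change of -0.80 (limma adjusted p = 0.0259). No marker of choroid plexus, erythroid cells, microglia, endothelium or meninges passed. The summed signal of 5 meninges markers spread widely in hyper, at 3210.8 to 17098.6, beside 3969.5 to 5869.6 in control. Among them Col1a1 read 171.0 to 4728.8 in hyper and 237.9 to 476.3 in control. The part of such tissue in the hyper results was not tested.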

How the data were processed

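Per the labels' protocols, RNA of 19 single fetal cortices was hybridised to Affymetrix arrays. The intensity of each probe set was deposited on a linear scale, already summarised and normalized by the authors. The submitters' processing notes name RMA and MAS5 without saying which of them produced the deposited intensity. A second deposited table holds, per the file headers, the authors' symbols, 1 present or absent call per probe set, signed fold changes (a score, positive for the higher group, deposited by the authors) and adjusted permutation p-values. Of 45101 probe sets 64 controls were left out. Values were tested as log2(value + 32) in limma 3.58.1 (R 4.3.3), with 1 fit of 4 group means, 15 residual degrees of freedom, eBayes and Benjamini-Hochberg adjustment over 45037 probe sets at a threshold of 0.05. Tests are two-sided. The number of arrays limits the precision. The fit was tested on simulated data with independent normal noise in each probe set and no shift shared across an array. Changes were added to log2(value + 32). In hyper against control those of 1.0 were recovered for 95.5% of probe sets and those of 0.5 for 63.5%. Recovery on the real arrays may be lower. Members, lists and tests were chosen with earlier results of these data known. Named were all member probe sets, those of the granule list past the threshold (1 gene of the list is not reported here), Prrc2a and Prrc2b, and the 5 genes most correlated with Taf15 and Prrc2c. Alternatives changed the normalization, pseudocount, present-call filter, arrays in the fit, array weights, the replicate number as a block and the rule for probe sets. Replicate numbers did not pair the samples.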

Additional observations from a re-analysis of the deposited data

Results flagged for a closer look

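In 120 groups of 4 or 5 arrays, 4 for each of the 30 probe sets, 9 held an array far from the others of its group by Dixon's test, and chance flags about 1 in 20 groups. Control array 4 was high in 3 of them. It read 311.5 for Atxn2 1443516_at, where the next control read 182.6, 2640.1 for G3bp1 1422801_at, next 2326.6, and 96.9 for Prrc2c 1440947_at, next 49.4. Hypo array 1 was low in 2, at 314.7 for Atxn2 1460653_at, next 462.6, and at 601.4 for Caprin1 1416463_at, next 880.7. Control array 2 was low for Caprin1 1416463_at at 864.5, and hypo array 2 was high for G3bp1 1422801_at at 2387.9. Hypo_plus array 4 was high for G3bp2 1421323_a_at at 4140.6, next 3595.7, and hypo_plus array 1 low for the dim Prrc2c 1432760_at at 16.5, next 21.3.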

How the results depend on the processing

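The number of member probe sets past the threshold in hyper against control, 1, became 2 with quantile normalization, present calls only or array weights, and 0 with a pseudocount of 1, only the arrays compared, the replicate block or both arrays with Y-linked signal left out. It ran from 0 to 3 when 1 array was left out, with 3 without control array 4 and 2 without hypo array 5. For the RNA granule list in hyper against control, 0 became 3 with quantile normalization, 2 with array weights and 1 with a pseudocount of 100 or present calls only, and 0 to 3 with 1 array left out. Its 14 in hypo_plus against hypo became 7 with a pseudocount of 1 (5 to 16 with 1 array left out), and its 11 against control became 17 with median centring, 6 with only the arrays compared and 21 with array weights (5 to 15). Over all probe sets, 79 in hyper against control became 178 with quantile normalization, 31 with a pseudocount of 1, 6 with only the arrays compared, 175 with array weights, 21 with the replicate block and 46 with both arrays of Y-linked signal left out (14 to 391 with 1 array left out). For hypo against control, 0 became 7 with a pseudocount of 100 (0 to 8), for hypo_plus against control, 1400 became 554 with only the arrays compared (605 to 1884), and for hypo_plus against hypo, 1421 became 2261 with quantile normalization (753 to 1692). Median centring gave 557 up and 730 down in hypo_plus against hypo, in place of 913 and 508, and 391 up and 1605 down against control, in place of 544 and 856, and shifted the median of all changes to -0.11 there.

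Changes near 0 turned sign. Those of Atxn2l 1438668_x_at became 0.01 in hyper against control with the mean of the gene's probe sets and -0.02 in hypo against control with median centring (-0.03 to 0.05 with 1 array left out). For Ewsr1 1436884_x_at in hyper against control they became -0.07 with median centring and -0.01 with the mean of probe sets. In hypo against control, G3bp1 1422801_at became 0.00 with quantile normalization, Atxn2 1443516_at -0.01 with median centring (-0.05 to 0.18 with 1 array left out), and Taf15 1438130_at ran from -0.23 to 0.02. In hyper against control, G3bp2 1423758_at ran from -0.04 to 0.01. The cause was not tested. With the mean of all probe sets of a gene, the change in hypo_plus against hypo was 0.65 for Taf15 and 0.41 for Prrc2c. In hyper against control that mean changed by 0.29 for Taf15 (limma adjusted p = 0.424) and by 0.15 for Prrc2c (0.604), and neither passed. Deviations of arrays with the same replicate number had correlations from -0.37 to 0.44 (27 pairs), so the numbers did not pair the samples, and the replicate block changed no other call of a member. The values of the 4 member probe sets added to those of highest mean, and of the granule list's probe sets, were tried in these alternatives after seeing the data.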
